A study of Sus scrofa with 4 samples.

Results

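Transcripts of 10 genes of cumulus expansion and ovulatory EGF-like signalling were measured in the pig (Sus scrofa) ovary. They were PTX3, TNFAIP6, HAS2, VCAN, CD44 and ITIH5 of the hyaluronan matrix and its receptor, and AREG, EREG, BTC and EGFR of the EGF-like signal. The genes were chosen by name, with earlier results of these data known. Of 22309 genes in the deposited table, 8 carried one of these names in the symbol column. HAS2 stood there as SHAS2 and BTC had no symbol, and both were matched by Ensembl identifier. The row with the symbol VCAN was described in the table as XRCC4, which is the next protein-coding gene to VCAN in the RefSeq table of Sscrofa11.1. Its KEGG entry was versican, and its counts and FPKM (fragments scaled to transcript length and depth) implied a transcript of 9530 to 9714 bases. It is called VCAN here.

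Messenger RNA of whole ovaries in diestrus was sequenced in 4 libraries, 2 from wild type (WT) sows and 2 from sows with leptin overexpression. The leptin overexpression line began with a transgenic boar, C013, that was cloned again. The clones were crossed to Duroc/Landrace/Yorkshire sows, and carriers were picked from the generation after the F1. The transgene's promoter, the ages of the sows and whether each library came from a separate animal were not given in the sources used here. The p-values therefore describe the spread among these 4 libraries, which may be technical.

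In a preovulatory follicle, the luteinising hormone surge makes granulosa cells release AREG, EREG and BTC, which bind EGFR on the cumulus cells around the oocyte. The cumulus cells then make hyaluronan with HAS2 and spread apart in a matrix. TNFAIP6 moves heavy chains of inter-alpha-trypsin inhibitor onto hyaluronan, PTX3 cross-links these chains, versican binds hyaluronan, and CD44 is a hyaluronan receptor on cells. PTX3 and TNFAIP6 are also made by stromal, endothelial and myeloid cells in inflammation.

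Total counts were 16493113 to 16797511 per library. TMM factors, which correct for the make-up of each library, were 0.809 to 1.34, and WT replicate 1 held the highest. Across genes, log2 levels were least alike between WT replicate 1 and leptin overexpression replicate 2 (r = 0.856) and most alike between WT replicate 2 and leptin overexpression replicate 1 (r = 0.941). LEP had 0 and 3 counts in WT, compared with 55 and 124 in leptin overexpression, the direction of the labels. Defining ovarian markers were detected in every library, with FSHR at 2.45 to 14.3 CPM, STAR at 7022 CPM or more and GDF9 at 12.8 CPM or more (CPM being the count scaled to a fixed library total after TMM correction).

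In the matrix genes, PTX3 and TNFAIP6 were higher in both leptin overexpression libraries than in either WT library (fitted ratios 10.3 and 7.60). CD44 was nearly level and ITIH5 was lower. In the EGF-like genes, AREG and EREG differed more between libraries of one group than between groups. None of the 10 genes passed the threshold, a Benjamini-Hochberg adjusted p under 0.05 over all genes in edgeR's quasi-likelihood test. That test called 0.0287% of 13937 genes higher and 0% lower. At an unadjusted edgeR p under 0.05, 2 of the 10 were higher (PTX3 and TNFAIP6), against 4.04% of all genes, and 0 were lower, against 5.32%. DESeq2 called the same 2 genes higher and 0 lower at an adjusted p under 0.05, against 0.718% and 1.47% of all genes, and limma-voom called 0. The 2 groups did not overlap in CPM in 5 genes that were higher in leptin overexpression (PTX3, TNFAIP6, HAS2, VCAN and BTC), against 22.2% of all genes. They did not overlap in 1 that was lower (ITIH5), against 22.9%.

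**Figure D1:**
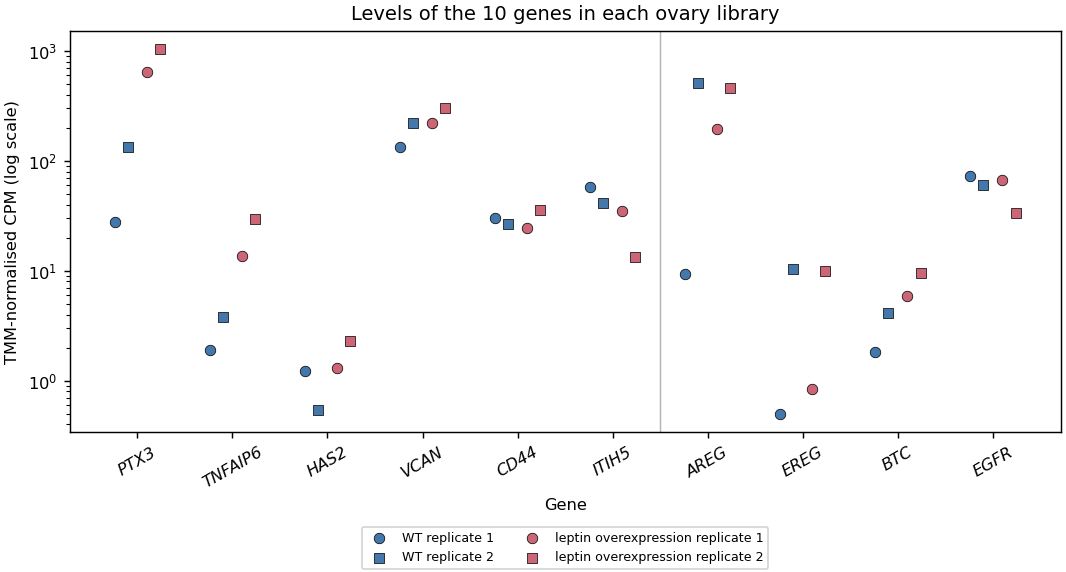
TMM-normalised CPM on a log axis for each of the 10 genes, with 1 point per library; circles are replicate 1 and squares replicate 2 of each group, and the vertical line separates matrix genes from EGF-like genes. PTX3 runs from 28.0 CPM in WT replicate 1 to 1031 CPM in leptin overexpression replicate 2, and AREG is low in WT replicate 1 alone (9.30 CPM).

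PTX3 (ENSSSCG00000011727), the long pentraxin that cross-links the cumulus matrix, had 618 and 2248 counts in WT replicates 1 and 2. It had 9783 and 13800 counts in leptin overexpression replicates 1 and 2. In CPM these were 28.0 and 134 against 639 and 1031. Both leptin overexpression libraries were above both WT libraries. The nearest pair across groups differed 4.76-fold, while the WT libraries differed 4.78-fold from each other and the leptin overexpression libraries 1.61-fold. The fitted ratio was 10.3 (log2 fold change 3.36, SE 0.76, edgeR adjusted p = 0.225; DESeq2 adjusted p = 2.7e-05). PTX3 was rank 125 of the 13937 genes by unadjusted p in edgeR. On the log2(FPKM + 1) scale its difference was 3.27 (SE 0.52, limma adjusted p = 0.0311), past the threshold. Without WT replicate 1 the log2 fold change was 2.61 and passed (edgeR adjusted p = 0.0201), and without WT replicate 2 it was 4.86 and passed (1.02e-07). Leaving out leptin overexpression replicate 1 gave 3.68 and leaving out replicate 2 gave 2.99, and neither passed (0.217 and 1.00). In such a fit the group left with a single library is assumed to vary like the other group.

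TNFAIP6 (ENSSSCG00000023716), the hyaluronan-binding protein that carries heavy chains to the matrix, was far less abundant. It had 42 and 64 counts in WT, compared with 207 and 400 in leptin overexpression, or 1.91 and 3.82 against 13.5 and 29.9 CPM. The groups did not overlap, and within each group the libraries differed about as much (2.00-fold in WT and 2.21-fold in leptin overexpression). The fitted ratio was 7.60 (log2 fold change 2.93, SE 0.58, edgeR adjusted p = 0.209; DESeq2 adjusted p = 4.2e-04). With each library left out in turn the log2 fold change was 2.25 to 3.47. Without WT replicate 1 it was 2.47 and did not pass (edgeR adjusted p = 0.101). Without WT replicate 2 it was 3.47 and passed (0.00175).

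Compared per transcript length, PTX3 exceeded TNFAIP6 in every library. PTX3 was at 19.9 and 70.9 FPKM in WT, compared with 313 and 441 in leptin overexpression, and TNFAIP6 at 1.68 and 2.51 against 8.23 and 15.9. The PTX3 to TNFAIP6 ratio of FPKM was 11.8 in WT replicate 1 and 28.3, 38.0 and 27.8 in the other libraries in the same order. It did not separate the groups.

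HAS2 (ENSSSCG00000005992), the synthase that makes the hyaluronan of the expanding cumulus, was near the limit of detection. It had 27 and 9 counts in WT, compared with 20 and 31 in leptin overexpression, or 1.22 and 0.537 against 1.31 and 2.32 CPM. The exact 95% counting interval of WT replicate 1 (0.807 to 1.78 CPM) took in the value of leptin overexpression replicate 1. Such intervals cover counting error only. Its log2 fold change was 1.02 (SE 0.88, edgeR adjusted p = 0.697), and the groups overlapped in counts and in FPKM (0.37 and 0.12 against 0.28 and 0.43). Of the other hyaluronan synthases, HAS1 was at 0.0454 and 1.43 against 0.783 and 0.523 CPM, and HAS3 had 0 counts in every library, which allows up to 0.224 CPM in the library with the highest limit (3 counts).

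VCAN (ENSSSCG00000014136), the large proteoglycan that binds hyaluronan, differed little across the groups. Its level was 134 and 219 CPM in WT, compared with 220 and 301 in leptin overexpression, so WT replicate 2 (218.7) all but met leptin overexpression replicate 1 (219.6). VCAN had a log2 fold change of 0.56 (SE 0.44, edgeR adjusted p = 0.669). In FPKM the groups overlapped, at 18.4 and 22.5 against 21.3 and 25.5. The separation in CPM therefore rested on the scaling.

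CD44 (ENSSSCG00000013297), the hyaluronan receptor of cumulus cells and leukocytes, was at 29.9 and 26.4 CPM in WT, compared with 24.7 and 35.5 in leptin overexpression. Both WT values lay between the leptin overexpression values. CD44 had a log2 fold change of 0.10 (SE 0.38, edgeR adjusted p = 0.939), negative with upper-quartile factors (-0.02) and on both FPKM scales (-0.24 and -0.26).

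ITIH5 (ENSSSCG00000011129), a member of the inter-alpha-trypsin inhibitor heavy chain family, went the other way. It was at 58.1 and 41.4 CPM in WT, compared with 35.0 and 13.4 in leptin overexpression. The groups did not overlap, but leptin overexpression replicate 1 was nearer to WT replicate 2 than to its own partner. The log2 fold change was -1.04 (SE 0.49, edgeR adjusted p = 0.559; DESeq2 adjusted p = 0.486). Without leptin overexpression replicate 2 it was -0.49 and without leptin overexpression replicate 1 it was -1.87. Among the 5 heavy chain genes ITIH5 made up 29.6% and 16.6% of the summed FPKM in WT, compared with 11.9% and 10.1% in leptin overexpression. ITIH4 held the largest share in the other 3 libraries (68.3%, 75.5% and 69.9%), and ITIH3 in WT replicate 1 (34.5%). ITIH5 lies next to ITIH2 in the RefSeq table, and ITIH2 was at 0.537 CPM or less in every library.

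AREG (ENSSSCG00000008963), the amphiregulin precursor, was set apart by a single library. It had 205 counts in WT replicate 1 and 8505 in WT replicate 2, against 2956 and 6147 in leptin overexpression, or 9.30 and 508 against 193 and 459 CPM. WT replicate 2 was the highest library and WT replicate 1 the lowest, 54.6-fold apart, while the leptin overexpression libraries lay between them. AREG had a log2 fold change of 0.34 (SE 1.64, edgeR adjusted p = 0.954) with no stable direction. It was -0.67 without WT replicate 1, 5.10 without WT replicate 2 (edgeR adjusted p = 9.9e-09) and -0.42 without leptin overexpression replicate 2. In limma-voom the value was larger, 2.09 (adjusted p = 0.648).

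EREG (ENSSSCG00000038185), epiregulin, was low and split each group in the same way. It had 11 and 173 counts in WT, compared with 13 and 134 in leptin overexpression, or 0.499 and 10.3 against 0.849 and 10.01 CPM. Replicate 2 was the higher library in both groups, by 20.7-fold in WT and 11.8-fold in leptin overexpression, and the exact 95% counting intervals of the high libraries (8.84 to 11.98 and 8.39 to 11.9 CPM) were far from those of the low ones (0.249 to 0.893 and 0.452 to 1.45). The log2 fold change was 0.01 (SE 1.58, edgeR adjusted p = 0.999). It was -2.65 without leptin overexpression replicate 2 and 3.38 without WT replicate 2 (edgeR adjusted p = 0.0463). AREG and EREG were both low in WT replicate 1 and both high in the replicate 2 libraries, but leptin overexpression replicate 1 had AREG at 193 CPM with EREG at 0.849 CPM.

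BTC (ENSSSCG00000008965), betacellulin, was the one EGF-like gene of the 10 whose groups did not overlap. It had 40 and 69 counts in WT, compared with 91 and 129 in leptin overexpression, or 1.81 and 4.12 against 5.94 and 9.64 CPM. The 95% counting intervals of WT replicate 2 (3.20 to 5.21 CPM) and leptin overexpression replicate 1 (4.78 to 7.29) overlapped. The log2 fold change was 1.40 (SE 0.62, edgeR unadjusted p = 0.0530 and adjusted p = 0.539), and it stayed positive, between 0.89 and 2.07, with each library left out. EPGN, EREG, AREG and BTC follow one another as protein-coding genes in the RefSeq table, and among the 3 measured here the pattern over the libraries differed from gene to gene.

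EGFR (ENSSSCG00000022126), the receptor of these ligands, was at 73.5 and 60.3 CPM in WT, compared with 67.6 and 33.6 in leptin overexpression. Leptin overexpression replicate 1 lay between the WT libraries and replicate 2 below them. EGFR had a log2 fold change of -0.40 (SE 0.42, edgeR adjusted p = 0.750), and 0.03 without leptin overexpression replicate 2.

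**Figure D2:**
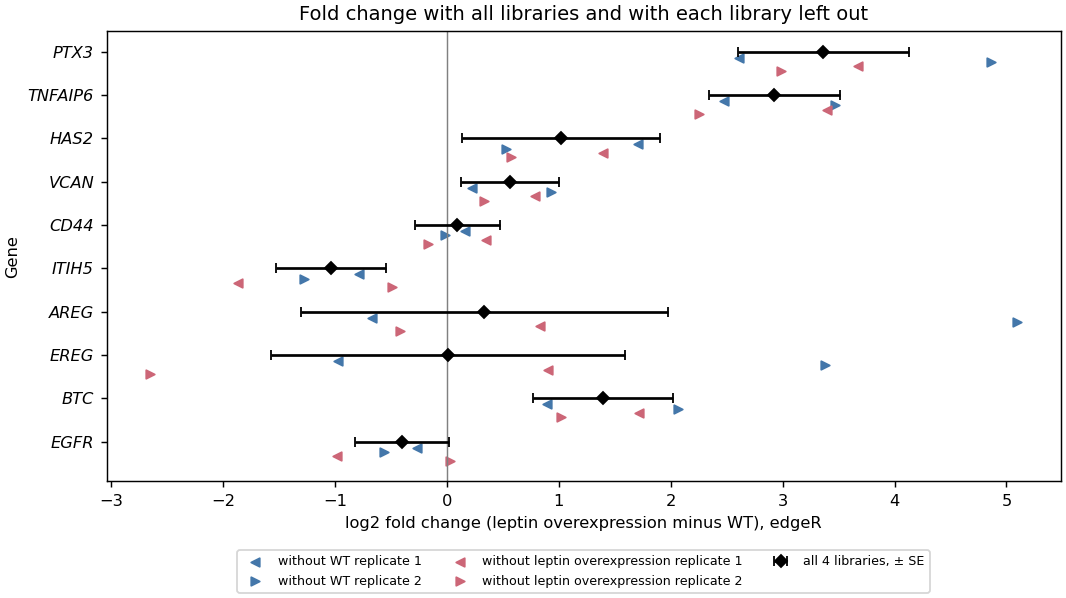
Log2 fold change of each gene, leptin overexpression minus WT, from edgeR with all 4 libraries (diamond, bar ± SE) and with each library left out (triangles). PTX3 and TNFAIP6 stay at 2.25 or more in every case, while AREG and EREG run from -0.67 to 5.10 and from -2.65 to 3.38.

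Per transcript length, AREG and PTX3 were the most abundant of the 10 genes, with means of 218 and 211 FPKM over the 4 libraries. VCAN (21.9), CD44 (12.5), EGFR (9.50), TNFAIP6 (7.08) and ITIH5 (5.88) followed, and BTC (1.79), EREG (1.20) and HAS2 (0.300) were lowest. The first 2 changed places between libraries. PTX3 was first in WT replicate 1 and in both leptin overexpression libraries, and AREG was first in WT replicate 2 and only the sixth in WT replicate 1. VCAN stayed above CD44, and CD44 above EGFR, in every library. TNFAIP6 was the seventh in both WT libraries and the fourth in leptin overexpression replicate 2.

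Among 6 EGF-family ligand genes, AREG held most of the summed FPKM in 3 libraries, with 88.1% in WT replicate 2 and 73.1% and 88.2% in leptin overexpression. In WT replicate 1, TGFA (transforming growth factor alpha) held 56.4% and AREG 32.6%. The summed level was 31.2 FPKM in that library and 469, 198 and 344 in the others in the same order. EREG and BTC made up at most 0.57% and 2.79% of the sum in any library. Among the 4 receptor genes of the family, ERBB3, which needs a partner to signal, held the largest share in every library (55.5% to 83.9%), and EGFR held 21.8% and 20.5% in WT, compared with 18.1% and 8.59% in leptin overexpression.

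**Figure D3:**
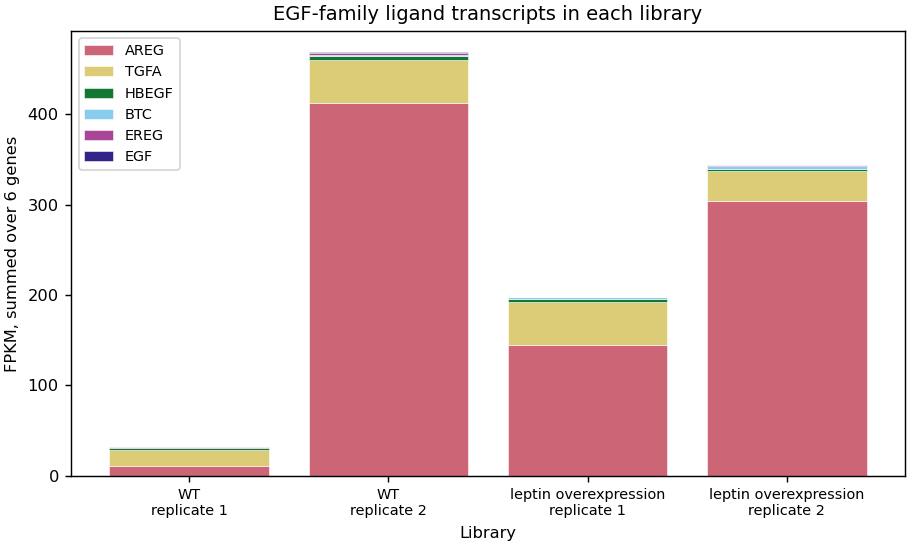
FPKM of 6 EGF-family ligand genes stacked for each library. AREG fills most of 3 bars, and the bar of WT replicate 1 (31.2 FPKM in all) is mostly TGFA.

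In the pathway around these genes, no list had a member past the edgeR threshold. Counts at an unadjusted edgeR p under 0.05 stand against 4.04% of all genes higher and 5.32% lower. Of 9 tested EGF-family ligands, receptors and shedding enzymes, 5 had positive and 4 negative log2 fold changes (median 0.06, against -0.01 over all genes tested). At an unadjusted edgeR p under 0.05, 1 was higher and 1 lower. ADAM10, a membrane protease that sheds EGF-family precursors, was at 58.5 and 72.6 against 106 and 310.1 CPM (log2 fold change 1.67, SE 0.53, edgeR adjusted p = 0.367). ERBB4 was at 0.998 and 0.716 against 0.131 and 0.0747 CPM, the latter values resting on a few counts. ADAM17, the main sheddase of AREG, was at 51.4 and 58.6 against 49.7 and 43.6 CPM. ERBB3 levels were 153 and 133 against 203 and 269 CPM (edgeR adjusted p = 0.589), ERBB2 at 46.5 and 46.8 against 38.5 and 20.0 (0.607), and TGFA at 26.8 and 96.7 against 104 and 85.4 (0.711).

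Of 19 tested hyaluronan and matrix partners, 6 had positive and 13 negative log2 fold changes (median -0.19). At an unadjusted edgeR p under 0.05, 1 was higher and 2 were lower. HAPLN1, the link protein that joins versican to hyaluronan and the gene next to VCAN in the RefSeq table, was at 2.72 and 6.21 against 7.83 and 52.1 CPM. Leptin overexpression replicate 2 stood far above the other libraries. Its log2 fold change was 2.75 (SE 0.91, edgeR adjusted p = 0.433; DESeq2 adjusted p = 0.0224). HAPLN3, a related link protein, was at 9.75 and 10.7 against 5.48 and 2.76 CPM, and ITIH3 at 27.8 and 9.37 against 8.81 and 4.33 (edgeR adjusted p = 0.518 for both). UGDH, which makes a sugar nucleotide for hyaluronan, was at 111 and 76.4 against 107 and 206 CPM, and LYVE1, a hyaluronan receptor of lymphatic endothelium, at 20.1 and 35.7 against 36.3 and 55.4. FN1 (fibronectin) was at 292 and 307 against 346 and 132 CPM.

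Of 14 tested ovulatory genes of the luteinising hormone and prostaglandin response, 9 had positive and 5 negative log2 fold changes (median 0.11). At an unadjusted edgeR p under 0.05, 2 of the 14 were higher and 0 lower, against 4.04% and 5.32% of all genes. These were PTGES, the prostaglandin E2 synthase, at 215 and 227 against 1046 and 1354 CPM (log2 fold change 2.44, SE 0.48, edgeR adjusted p = 0.209; DESeq2 adjusted p = 4.4e-07), and RGS2, a regulator of G protein signalling, at 39.6 and 79.2 against 143 and 165 CPM (edgeR adjusted p = 0.367). PTGS2, the cyclooxygenase induced in ovulatory follicles, was near the limit of detection at 0.635 and 0.835 against 1.18 and 1.72 CPM. LHCGR, the luteinising hormone receptor, was at 32.6 and 31.6 against 24.2 and 44.0 CPM, and PGR, the progesterone receptor, at 4.76 and 3.16 against 1.44 and 4.48. PTGER4, a prostaglandin E2 receptor, had 6.08 and 5.61 against 2.81 and 2.39 CPM (edgeR adjusted p = 0.564), and IL6 at 0.544 and 1.25 against 2.81 and 0.896 (0.705). CEBPB, a transcription factor downstream of ERK, was at 127.5 and 257.5 against 189.7 and 147 CPM.

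Of 14 tested feedback genes of EGFR and ERK signalling, 6 had positive and 8 negative log2 fold changes (median -0.08, but -0.61 without WT replicate 1 and 0.69 without WT replicate 2), and 0 had an unadjusted edgeR p under 0.05 in either direction. DESeq2 also called 0. DUSP6, an ERK phosphatase, was at 26.2 and 60.8 against 34.3 and 19.1 CPM, and SPRY2 at 27.4 and 93.7 against 67.4 and 23.5. LRIG1, an inhibitor of EGFR, was at 45.1 and 175 against 78.9 and 45.9 CPM. DUSP4, another phosphatase of ERK, was at 107.8 and 126 against 125.5 and 107.6 CPM, SPRED1 at 18.4 and 25.8 against 20.7 and 39.3, and IER3 at 12.5 and 28.2 against 49.9 and 23.98. Of 7 tested acute inflammatory genes, 3 had positive and 4 negative log2 fold changes (median -0.12), with 0 at an unadjusted edgeR p under 0.05 and 0 called by DESeq2. NFKBIA was at 35.7 and 47.0 against 77.1 and 52.7 CPM, SOD2 at 149.5 and 179 against 179 and 214, ICAM1 at 18.2 and 28.9 against 20.9 and 12.03, and TNF at 0.907 and 0.358 against 0 and 0.822.

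**Figure D4:**
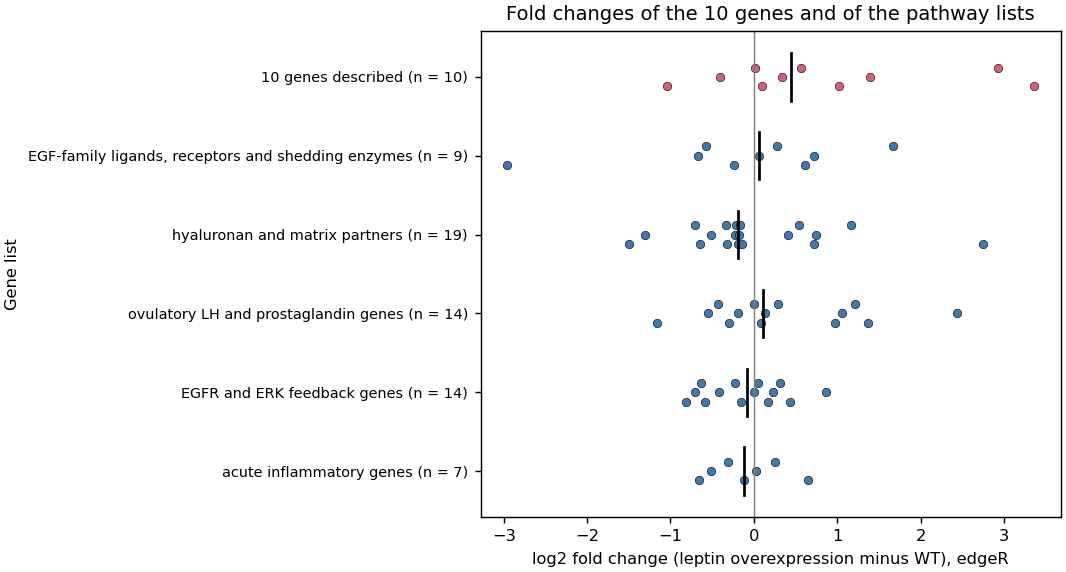
Log2 fold changes from edgeR of the 10 genes and of the tested genes of 5 pathway lists, 1 point per gene, with the median as a vertical bar. The medians of the lists lie between -0.19 and 0.11, and that of the 10 genes at 0.45.

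Over the 10 genes, 8 log2 fold changes were positive and 2 negative, with a median of 0.45. The median was 0.19 without WT replicate 1, 1.499 without WT replicate 2, 0.87 without leptin overexpression replicate 1 and 0.18 without leptin overexpression replicate 2. Over all genes tested, 49.3% were positive and the median was -0.01. On a log2 scale, 4 of the 10 differed more within WT than between group means, against 47.6% of all genes. The median of all genes moved to -0.11 with upper-quartile factors and to -0.28 on the log2(FPKM + 1) scale, where 6 of the 10 were positive and 4 negative in both cases.

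Summed levels of cell type markers, in CPM, are given beside these results. The 10 granulosa and cumulus markers summed to 1963 and 2088 in WT, compared with 2258 and 1989 in leptin overexpression, all detected in every library. Members were mixed. CYP19A1 was low in WT replicate 1 (9.21 and 196.9 against 197.2 and 161). INHA was lower without overlap (565 and 300 against 253 and 137), SERPINE2 was higher without overlap (300 and 594 against 647 and 663), and the others overlapped. The 8 luteal markers summed to 19824 in WT replicate 1 and to 43770.2, 41085 and 45029 in the other libraries, in the same order, with OXT at 0 counts in those 3. Their members were mixed. STAR alone was higher without overlap (7022 and 15164 against 16546 and 23771), and LHCGR and OXT were not lowest in WT replicate 1. Oocyte markers, 8 of 9 detected and DAZL at 0 in all libraries, summed to 149.8 in WT replicate 1 and to 21.9 to 25.02 in the others. WT replicate 1 was thus the lowest library for AREG, EREG, PTX3, TNFAIP6 and the luteal list and the highest for the oocyte list. In bulk tissue, fewer cells of a type and less RNA per cell cannot be told apart.

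Some lists had sums that did not overlap between groups, though only narrowly for the macrophage and adipocyte markers. Of all genes tested, 22.2% were higher and 22.9% lower without overlap in CPM. The 5 matched markers of surface and oviduct epithelium, led by OVGP1 (oviductal glycoprotein), summed to 449.9 and 238 in WT and to 5.55 and 64.3 in leptin overexpression, with KRT18 and FOXJ1 at 0 in leptin overexpression replicate 1. EPCAM did not follow, at 33.8 and 7.76 against 2.55 and 57.1, and held most of the sum in leptin overexpression replicate 2. Without OVGP1 the sum of the other 4 overlapped between groups, at 134 and 55.3 against 5.48 and 63.1. Of these 4, EPCAM alone overlapped. KRT8 was lower without overlap (55.2 and 36.1 against 2.94 and 5.15). So were KRT18 (6.44 and 2.74 against 0 and 0.374) and FOXJ1 (38.2 and 8.65 against 0 and 0.448). Without EPCAM the sum was 416 and 230 in WT and at most 7.17 in leptin overexpression. The 8 macrophage markers summed to 344 and 440.5 against 326 and 293, but its members were mixed. CD68, CSF1R and AIF1 were lower without overlap, MRC1 was higher without overlap (18.4 and 26.1 against 42.3 and 42.2), and CD14, CD163, C1QA and C1QB overlapped. The 5 matched neutrophil markers summed to 17.01 and 40.2 against 7.51 and 6.65. CSF3R alone did not overlap (14.4 and 1.01 against 0.522 and 0.0747), and it held most of the sum in WT replicate 1. S100A12 held most in the other libraries (1.36 and 34.5 against 5.88 and 4.78). S100A8 was at 0 in WT replicate 1, CXCR2 in leptin overexpression replicate 1 and MPO in leptin overexpression replicate 2. The 6 smooth muscle and pericyte markers summed to 1322 and 1429 against 812 and 972. RGS5 did not follow, at 212 and 325 against 368 and 276, while the others were each lower without overlap. The 7 stromal fibroblast markers summed to 6979 and 6506 against 11851 and 7531. COL3A1 held most of each sum (3652 and 4568 against 8659 and 4989), and without it the other 6 overlapped between groups, at 3328 and 1939 against 3193 and 2541. Of those 6, PDGFRA alone did not overlap (186 and 144 against 209.9 and 217). The 6 T cell markers summed to 13.4 and 23.99 against 8.23 and 5.08, with CD3G at 0 outside WT replicate 1. CD2 overlapped (3.45 and 8.83 against 3.59 and 2.09), while CD3D, CD3E, CD5 and CD8A were each lower without overlap. The 5 adipocyte markers summed to 20.6 and 18.6 against 17.6 and 14.3. FABP4 was lower without overlap (12.7 and 2.80 against 0.588 and 0.822), and LIPE overlapped (7.21 and 15.3 against 16.5 and 13.4). The others had at most 9 counts in any library, with ADIPOQ at 0 in both replicate 2 libraries and PLIN1 and CIDEC at 0 in leptin overexpression replicate 2. The sums of the 7 endothelial markers overlapped between groups (713 and 1296 against 881 and 418). Of these, PECAM1 (232 and 290 against 196 and 138) and CDH5 (134 and 194 against 122 and 50.1) were lower without overlap. The other endothelial markers overlapped. The sums of the 5 theca markers also overlapped (235 and 1782 against 884 and 432), and CYP17A1 held most of each. PTCH1 was lower without overlap (19.01 and 21.96 against 13.45 and 13.67), while the other theca markers overlapped. The part of these cell types in the levels of the 10 genes was not tested.

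Of the 10525 other genes with a symbol and a mean of at least 5 CPM, those nearest to PTX3 in pattern were NEFM, CPS1, IBSP and RFLNA. Likeness was the Euclidean distance between log2 CPM values over the 4 libraries, each gene centred on its own mean, and these distances were 0.37 to 0.69. NEFM was at 0.681 and 4.18 against 21.5 and 41.8 CPM, and CPS1 at 3.36 and 14.1 against 67.6 and 78.9. IBSP, a bone sialoprotein, was at 24.997 and 79.8 against 410.3 and 566 CPM, and RFLNA, a filamin regulator, at 8.71 and 49.2 against 281 and 616. Near to TNFAIP6 were CXCR4, OLFM2 and MRO, at distances of 0.17 to 0.35. CXCR4, a chemokine receptor, was at 36.6 and 83.0 against 253 and 581 CPM. OLFM2 was at 66.7 and 130.2 against 364 and 856 CPM, and MRO at 78.0 and 120.004 against 580.4 and 1116. With 4 libraries such likeness is a description only.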

How the data were processed

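Poly(A)-enriched RNA of 4 ovary samples was sequenced on an Illumina instrument, per the labels' protocols. The authors deposited 1 table with expected counts per gene (estimated, without scaling to depth) and FPKM values (scaled to transcript length and fragments), per the file headers. Of the tools in the submitters' processing notes, which state no roles, RSEM, StringTie 1.3.1 and HISAT2 bear on such values; fastp 0.18.0, Bowtie2 2.2.8, edgeR 3.32.0 and DESeq2 are listed too. The genome build and the use of strand in counting were not given in the sources used here. A column headed as control 1 or 2 was taken as the WT sample with that number.

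Each expected count was rounded to a whole number. The filter filterByExpr kept 13937 genes, all 10 described genes among them, and removed 8372. Genotypes were compared over these genes in edgeR 4.0.16 (limma 3.58.1, R 4.3.3) by the quasi-likelihood test with TMM factors, robust dispersion and no further covariate, which left 2 residual degrees of freedom. Benjamini-Hochberg adjustment and a threshold of 0.05 were used. The SE was taken as the size of the log2 fold change over the root of the F statistic. The script was checked on simulated data. Totals were 16493113 to 16797511 counts. A gene with no counts may still be present at up to 3 counts, or 0.136 to 0.224 CPM depending on the library.

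The genes and lists were chosen with earlier results of these data known. The rule named the 10 genes, LEP, and, in each pathway list, genes past the threshold or else the 4 with the lowest p and the 2 with the highest FPKM, and 4 genes each most like PTX3 and TNFAIP6 in pattern, of which 1 is not reported here. ADAM17, HAS1, HAS3, ITIH2, ITIH4, PTGS2, LHCGR and PGR were named outside it, after their values were seen, as were NPTX2 and the other pentraxins. Of the EGF-family list, EPGN matched no row and was not analysed here. As alternatives, the fit was repeated with upper-quartile or RLE factors, without a filter or with 1 CPM in 2 libraries, with the replicate number as a block, without each library in turn, and in DESeq2 1.42.0, in limma-voom and in limma-trend (log2 of FPKM + 1 or + 0.1, for genes with 0.1 FPKM in 2 libraries).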

Additional observations from a re-analysis of the deposited data

How the results depend on the processing

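Log2 fold changes of PTX3 passed the threshold with no filter (3.37), in DESeq2 (3.37) and in limma-trend on log2(FPKM + 1) (3.27) and log2(FPKM + 0.1) (3.30), and ran from 2.61 to 4.86 with each library left out. TNFAIP6 passed with no filter (2.94) and in DESeq2 (2.93), and ran from 2.25 to 3.47. With each library left out, AREG ran from -0.67 to 5.10, EREG from -2.65 to 3.38, EGFR from -0.98 to 0.031 and CD44 from -0.17 to 0.35. With upper-quartile factors EREG was -0.067 and CD44 -0.021; on the FPKM scales EREG was -0.10 and -0.090 and CD44 -0.24 and -0.26. HAS2, VCAN, BTC and ITIH5 kept their sign and did not pass under any alternative. The cause of these differences was not tested.

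Of the 10 genes, 2 passed as higher with no filter, 2 in DESeq2 and 1 in each limma-trend fit, and 0 to 4 with a library left out. Of all genes, those higher and lower numbered 7 and 4 with upper-quartile factors, 84 and 168 with no filter, 100 and 205 in DESeq2, 1 and 0 in limma-voom, 10 and 14 on log2(FPKM + 1) and 37 and 108 on log2(FPKM + 0.1). With a library left out they numbered 0 to 258 and 0 to 423. Such a fit takes its spread from the group that keeps both libraries. With the replicate block 11 and 12 passed, and 0 of the 10 genes. The labels state no pairing, so the numbers were not taken as pairs. Deviations of same-numbered libraries correlated at -0.0995, and those of unlike-numbered libraries at 0.0995. With 2 libraries per group these are 1 value with its sign turned, which cannot decide on pairing.

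Among hyaluronan and matrix partners, 1 gene was higher in DESeq2, and 0 to 1 were higher and 0 to 1 lower with a library left out; their median was -0.55 on log2(FPKM + 0.1) and -0.60 to 0.37 with a library left out. Among ovulatory genes, 1 was higher with no filter, 1 in DESeq2, 1 on log2(FPKM + 0.1) and 0 to 2 with a library left out; their median was 0.0058 with upper-quartile factors, -0.33 and -0.39 on the FPKM scales and -0.046 to 0.28 with a library left out. Of the feedback genes 0 to 1 were higher with a library left out. With a library left out, the median of the feedback genes ran from -0.61 to 0.69, that of the EGF-family list from -0.32 to 0.60 and that of the acute inflammatory genes from -0.42 to 0.23, so the sign of each depended on the libraries. HAS2 had 9 to 31 counts per library, and depth was not varied.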

Other observations

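NPTX2 (ENSSSCG00000007603), a neuronal relative of PTX3 in the long pentraxin family, had the same order over the libraries as PTX3. Its CPM was 24.7 and 72.4 in WT, compared with 181 and 402 in leptin overexpression. The fitted difference was 2.58 on the log2 scale (SE 0.63, edgeR adjusted p = 0.248; DESeq2 adjusted p = 0.0012). The groups did not overlap, and the WT libraries differed 2.94-fold. Of the other pentraxin genes in the table, NPTX1 was at 26.9 and 9.97 against 27.7 and 12.9 CPM, PTX4 at 2.13 and 3.88 against 2.28 and 1.05, NPTXR at 2.81 and 1.61 against 1.63 and 0.523, CRP at 0.454 and 0.418 against 0.522 and 0.896, and APCS had 0 counts in every library. These genes were picked after the values of NPTX2 had been seen.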
